A study of Sus scrofa with 8 samples.

Results

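The genes described here are the microRNA gene models of a poly(A) RNA-seq table of pig back muscle. They were chosen by name and depth: the name begins with ssc-mir, the pig prefix of the microRNA catalogue miRBase, and the deposited counts sum to at least 10 over the 8 libraries. This gave 31 of 86 such models, in a table of 23235 genes. The choice used the summed counts and not the difference between the groups, so levels are given as a description. The libraries came from the longissimus dorsi of weaned Duroc x Landrace x Yorkshire piglets, which entered the study at 28 days of age. Control piglets received sterile saline by gavage (10 mL), and treated piglets received the same volume with melatonin at 5 mg per kg body weight, each daily for 23 days after 5 days of adaptation. All were fed one basal diet, 6 piglets were randomised to each group, and 4 libraries per group were deposited. The labels do not say that the libraries came from separate piglets, so p-values measure the spread between these samples. Fibre markers (ACTA1, CKM, MYLPF, TNNT3, MYH1 and MYH7) summed to 81172 to 112983 FPKM per library, against 5.85 to 15.6 FPKM for the liver markers ALB, APOA1 and TTR.

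MicroRNAs are short RNAs that guide Argonaute proteins to messenger RNAs and lower their translation or stability. They are cut from long primary transcripts, first in the nucleus by Drosha and DGCR8, which release a hairpin, and then in the cytoplasm by Dicer. The mature strand has no poly(A) tail and is far shorter than an RNA-seq insert, so a poly(A) library does not measure it. Counts on a hairpin's gene model can come from longer RNA across it, such as the primary transcript, a host gene's pre-mRNA or another overlapping transcript. They can also come from reads shared with another locus, and no reads were examined here. The values below therefore describe RNA assigned to the hairpin's model and not the mature microRNA.

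Of the 31 models, 1 held most of the counts. The pig microRNA ssc-mir-10390 took 24949 of the 26216 counts of all members (95.2%), and the other 30 models shared 1267 counts. Only ssc-mir-10390 and ssc-mir-378-1 reached 100 summed counts, 27 of the 31 models stayed under 60, and the median was 21. At least 1 library was at 0 in 16 of the 31 models. Leaving out ssc-mir-10390, the members' counts per library were 98 to 217 in controls, against 121 to 224 after melatonin, so the summed level overlapped between the groups. The library totals behind these values were 53471667 to 60629098 counts. In edgeR's quasi-likelihood test over 19438 genes, 0 members had an adjusted p under 0.05, as did 0.0% of all genes (smallest adjusted p = 0.551). At an unadjusted p under 0.05, 1 of 31 members was lower after melatonin (ssc-mir-10390), beside 3.15% of all genes, and 0 were higher, beside 5.6% of all genes. By sign alone 20 members lay below control and 11 above, with a median log2 fold change of -0.53, beside 48.2% of all genes below control and a median of 0.02. The standard error of a member's log2 fold change had a median of 1.32, against 0.33 over all genes tested, so changes of several fold were not detectable at this depth for most members.

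**Figure D1:**
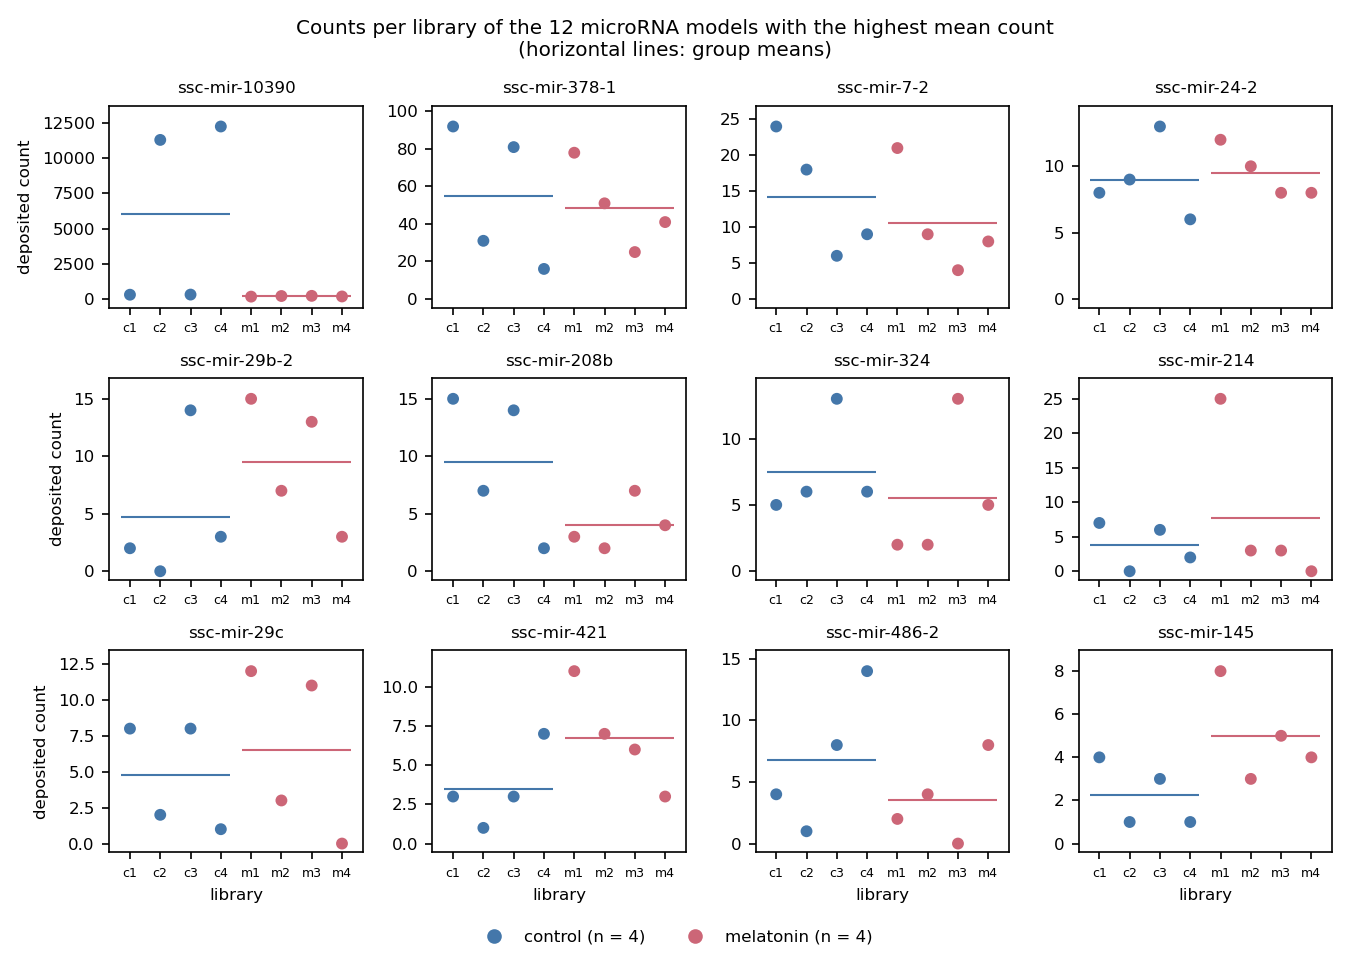
Deposited counts (y axis, linear, a different range in each panel) of the 12 microRNA models with the highest mean count in the 8 libraries (x axis: c1 to c4 control replicates, m1 to m4 melatonin replicates); points are libraries and lines are group means. In ssc-mir-10390 control replicates 2 and 4 stand far above the other 6 libraries, and in the other 11 panels the groups overlap.

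The model ssc-mir-10390 is a 95 bp hairpin on the minus strand of chromosome 9, from 4700784 to 4700878 (ENSSSCG00000050793, Sscrofa11.1). It had 299, 11312, 308 and 12267 counts in control replicates 1 to 4, and 164, 206, 218 and 175 after melatonin. Control replicates 2 and 4 were thus far above every other library, at a mean of 35.9 times the FPKM of control replicates 1 and 3. Control replicates 1 and 3 were in turn 1.70 times the melatonin mean, and the groups did not overlap. The log2 fold change was -5.13 ± 1.15 (SE, edgeR adjusted p = 0.551), while DESeq2 called it (adjusted p = 0.00697). Without control replicates 2 and 4, a comparison chosen after seeing the data, the log2 fold change was -0.79 ± 0.25 (edgeR adjusted p = 0.789). The size of the difference therefore rested on those 2 libraries, while the sign was the same without them.

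No gene of the table overlaps ssc-mir-10390. The nearest gene lies 36058 bp away (ENSSSCG00000060652, 1 count in all), and the nearest expressed gene is HBB, the beta chain of haemoglobin, 99415 bp away on the same strand. HBB had 8766, 3244, 11957 and 3269 counts in controls and 2816, 3232, 7402 and 3071 after melatonin. Its lower controls were replicates 2 and 4, the libraries in which ssc-mir-10390 was highest. Of 17217 genes with at least 30 summed counts, 347 had control replicates 2 and 4 above all 6 other libraries, and in 4 of them the gap was at least 16-fold on the scale of FPKM + 0.01. Besides ssc-mir-10390 these were ENSSSCG00000041874 (a lncRNA), CHRNA2 (a neuronal acetylcholine receptor subunit) and ENSSSCG00000054645, all picked after their values were seen. In control replicates 2 and 4, ENSSSCG00000041874 measured 0.333 and 1.56 FPKM, and CHRNA2 measured 0.191 and 0.341. Both were at 0 in the 6 other libraries, so the size of their gaps is set by the added 0.01. ENSSSCG00000054645 is a protein-coding model of very short span on chromosome X (22067693 to 22067767), with 4, 376, 10 and 557 counts in controls and 8, 11, 1 and 1 after melatonin. Its gap of 35.4-fold between the lower of those 2 controls and the highest other library was close in size to the 34.4-fold gap of ssc-mir-10390.

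**Figure D2:**
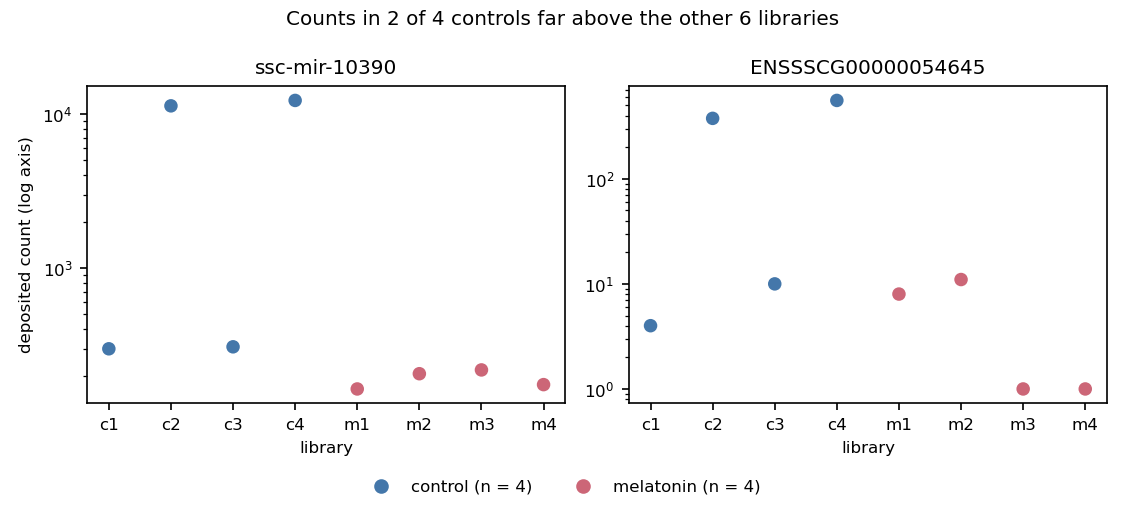
Deposited counts (y axes, log scale) of ssc-mir-10390 and of the very short model ENSSSCG00000054645 in the 4 control (c1 to c4) and 4 melatonin (m1 to m4) libraries. In both genes control replicates 2 and 4 lie over 30 times above each of the other 6 libraries.

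Skeletal muscle has a small set of microRNAs of its own, the myomiRs, some of which sit inside myosin genes. The model of miR-208b, a microRNA carried by the slow myosin gene MYH7 (80 bp, chromosome 7, 75667786 to 75667865), had 15, 7, 14 and 2 counts in controls and 3, 2, 7 and 4 after melatonin. Melatonin replicates 1, 3 and 4 lay above control replicate 4, so the groups overlapped, and the log2 fold change was -1.39 ± 1.08 (edgeR adjusted p = 0.741). MYH7 itself measured 1668, 403, 994 and 579 FPKM in controls and 876, 130, 1102 and 619 after melatonin (-0.55 ± 0.53). In FPKM control replicate 1 was the highest library and melatonin replicate 2 the lowest for both the hairpin and MYH7. On the scale of FPKM, which divides by length, the hairpin stood at 0.165% of MYH7.

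The model of miR-486, a microRNA of muscle and red cells (ssc-mir-486-2, chromosome 17, 10758818 to 10758899), lies within ENSSSCG00000031608, at the position of the ankyrin gene ANK1 in RefSeq's Sscrofa11.1 table. It had 4, 1, 8 and 14 counts in controls and 2, 4, 0 and 8 after melatonin, and the groups overlapped (-0.88 ± 1.40, edgeR adjusted p = 0.907). Its host measured 577 to 735 FPKM in controls and 439 to 720 after melatonin, and the hairpin stood at 0.153% of it, the lowest of the same-strand pairs. The red cell markers found (3 of 5, with SLC4A1 at or near 0 in every library) summed to 41.3 to 165 FPKM in controls and 37.8 to 99.4 after melatonin. Control replicate 3 was the highest library for these markers and control replicate 4 for ssc-mir-486-2.

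MiR-1, the most studied of the muscle microRNAs, is made from a pair of loci. The model ssc-mir-1 (chromosome 17, 61894036 to 61894143) had 4, 2, 2 and 2 counts in controls and 1, 1, 0 and 1 after melatonin. In FPKM every control lay above every melatonin library for 2 of 31 members, this model and ssc-mir-10390, beside 0.998% of all genes, and the reverse held for 0 members, beside 1.32%. The model ssc-mir-1 reached the 10 counts of the rule only through the controls, which held 10 of its 13, so nothing is read from that count of members. Once the rounding described below is undone, 8.79 of its counts remain, and the difference did not pass the test (-1.67 ± 1.42, edgeR adjusted p = 0.775). Limma on log2(FPKM + 1) gave an unadjusted p of 0.00294 for it, with a difference of -0.33 on that scale. The smallest adjusted p of any gene in that limma fit was 0.841. As the model was selected through its controls and holds few counts, nothing is read from this p-value either. The second locus, on chromosome 6, is listed as MIR1-2 and so falls outside the name rule. It held far more counts: 87, 89, 96 and 53 in controls and 62, 31, 46 and 63 after melatonin (-0.84 ± 0.39, edgeR adjusted p = 0.561). MIR133A1, beside it on the same strand, had 268, 209, 292 and 150 counts in controls and 264, 132, 139 and 153 after melatonin (-0.58 ± 0.29, edgeR adjusted p = 0.571). Both lie on the strand opposite to MIB1, a ubiquitin ligase of Notch signalling, and in both the groups overlapped. Other muscle models were near 0: ssc-mir-133a-1 had 8 counts in all, and ssc-mir-133b had 1 count in each library with a mean of 0.000647 FPKM.

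MiR-378 is a regulator of lipid and energy metabolism and sits in PPARGC1B, which encodes a coactivator of mitochondrial genes. The model ssc-mir-378-1 (80 bp, plus strand of chromosome 2, 150825865 to 150825944) lies 2492 bp from the start of the PPARGC1B span. It had 92, 31, 81 and 16 counts in controls and 78, 51, 25 and 41 after melatonin, with 11.98 ± 8.49 and 10.1 ± 5.06 FPKM (SD, n = 4). Control replicates 1 and 3 and melatonin replicate 1 were the highest, the groups overlapped, and the log2 fold change was -0.32 ± 0.58 (edgeR adjusted p = 0.926). Without control replicate 1 it was 0.028. PPARGC1B measured 2.29, 2.45, 2.29 and 1.52 FPKM in controls and 1.11, 0.887, 0.826 and 1.72 after melatonin (-0.97 ± 0.33, edgeR adjusted p = 0.551).

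The hairpin therefore stood above its host, at 6.74 times the host's FPKM over the 8 libraries. The ratio was 2.12 to 8.90 in controls and 4.64 to 15.4 after melatonin, so the groups overlapped. Melatonin replicates 1 and 2 had the highest ratios. They combine a hairpin level within the control range with a host level below every control.

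The miR-29 family lowers collagen and other matrix messages, and ssc-mir-29b-2 and ssc-mir-29c lie 473 bp apart on the plus strand of chromosome 9 (135019075 to 135019164 and 135019638 to 135019725). The model ssc-mir-29b-2 had 2, 0, 14 and 3 counts in controls and 15, 7, 13 and 3 after melatonin (0.80 ± 1.29, edgeR adjusted p = 0.909). The model ssc-mir-29c had 8, 2, 8 and 1 counts in controls and 12, 3, 11 and 0 after melatonin (0.20 ± 1.38, edgeR adjusted p = 0.981). Melatonin replicates 1 and 3 and control replicate 3 were high for both, control replicate 1 was high for ssc-mir-29c alone, and control replicates 2 and 4 and melatonin replicate 4 were low for both. The 4 adipocyte markers ADIPOQ, PLIN1, FABP4 and LEP, the last at 0 in 5 of the 8 libraries, summed to 40.6, 21.2, 119 and 28.7 FPKM in controls and 203, 68.4, 189 and 13.5 after melatonin. The 3 libraries highest for ssc-mir-29b-2 were also the 3 highest for these markers, whose part in the result was not tested. The liver marker sum had the same 3 highest libraries, so the match was not particular to the adipocyte sum. It was 15.6 FPKM in melatonin replicate 1, 13.5 in control replicate 3 and 10.2 in melatonin replicate 3. The liver sum is nearly all APOA1, at a mean of 9.95 FPKM against 0.141 for ALB and 0.006 for TTR. Control replicate 3 was not among the 3 highest libraries for ALB alone. In bulk tissue, fewer cells of a type and less RNA per cell cannot be told apart.

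MiR-214 is made with miR-199a from an antisense transcript of the dynamin gene DNM3, which is active in fibroblasts and other mesenchymal cells. The model ssc-mir-214 (112 bp, minus strand of chromosome 9, 114527990 to 114528101) had 7, 0, 6 and 2 counts in controls and 25, 3, 3 and 0 after melatonin (0.80 ± 1.57, edgeR adjusted p = 0.931). Melatonin replicate 1 alone was above the controls, and without it the log2 fold change was -0.97. MIR199A2, 5675 bp away on the same strand and outside the name rule, had 0 counts in every control and 15, 0, 3 and 0 after melatonin. DNM3, on the other strand, measured 0.0945 FPKM, so the hairpin stood at 9.32 times its level. The 5 fibroblast markers COL1A1, COL3A1, DCN, PDGFRA and LUM, all detected, summed to 387 to 767 FPKM in controls and to 4902, 550, 1614 and 534 FPKM after melatonin. Melatonin replicate 1 was the highest library for these markers, for ssc-mir-214 and for MIR199A2, and the part of the markers in the result was not tested. The match was not particular to fibroblast markers. The same library was the highest for the smooth muscle (103 FPKM), adipocyte (203 FPKM) and liver (15.6 FPKM, nearly all APOA1) marker sums. Single markers of these sums differed. TAGLN, MYH11, ADIPOQ, PLIN1, LEP, APOA1 and ALB were highest in melatonin replicate 1. CNN1 and ACTA2 were highest in control replicate 1 (51.1 and 27.8 FPKM, against 39.9 and 27.3 in melatonin replicate 1). FABP4 and TTR were highest in melatonin replicate 3. Melatonin replicate 1 was not the highest for the fibre, endothelial, leukocyte, red cell or nerve marker sums.

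**Figure D3:**
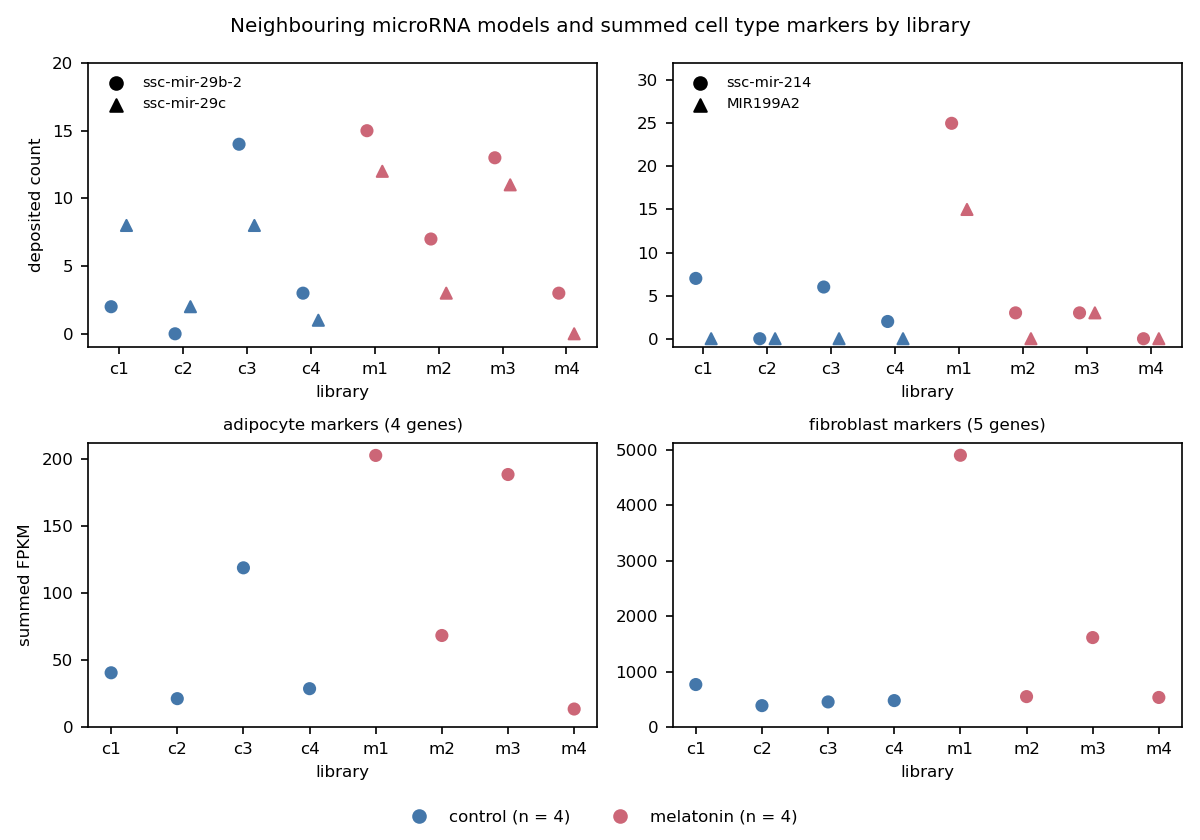
Top: deposited counts of ssc-mir-29b-2 with ssc-mir-29c and of ssc-mir-214 with MIR199A2 in the 4 control (c1 to c4) and 4 melatonin (m1 to m4) libraries. Bottom: summed FPKM of 4 adipocyte and 5 fibroblast markers in the same libraries. The highest library of each marker sum, melatonin replicate 1, is also the highest for the microRNA models above it. It is the highest for the smooth muscle and liver marker sums as well, which are not drawn.

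MiR-145 and miR-143 form a cluster known from smooth muscle. The model ssc-mir-145 (chromosome 2, 150580126 to 150580211) had 4, 1, 3 and 1 counts in controls and 8, 3, 5 and 4 after melatonin (0.95 ± 1.19, edgeR adjusted p = 0.872), and the groups overlapped. Its neighbour ssc-mir-143, 1308 bp away and below the membership threshold, had 2, 3, 0 and 3 counts in controls and 0 in every melatonin library. Smooth muscle markers (ACTA2, MYH11, TAGLN and CNN1, all detected) summed to 51.5 to 92.2 FPKM in controls and 59.8 to 103 after melatonin. The blood cell models ssc-mir-155 and MIR142 had 2 counts each over all libraries.

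Among the other members with the most counts, ssc-mir-7-2 (chromosome 10, 30986180 to 30986288) lies in HNRNPK, an RNA-binding protein gene. It had 24, 18, 6 and 9 counts in controls and 21, 9, 4 and 8 after melatonin. The groups overlapped (-0.61 ± 0.83, edgeR adjusted p = 0.887), and HNRNPK itself differed by 0.02 ± 0.15 at a mean of 48.9 FPKM. The model ssc-mir-24-2, of a microRNA made in clusters with miR-23 and miR-27, had 8, 9, 13 and 6 counts in controls and 12, 10, 8 and 8 after melatonin, with overlap (-0.07 ± 0.82). It is listed on the plus strand (chromosome 10, 27079413 to 27079497), while its cluster neighbours MIR27B, 456 bp away with 18 counts, and ssc-mir-23b, 699 bp away with 6 counts, are listed on the minus strand. The model ssc-mir-324 (chromosome 12, 52579596 to 52579675) had 5, 6, 13 and 6 counts in controls and 2, 2, 13 and 5 after melatonin (-0.61 ± 1.09), and replicate 3 was the highest in both groups. It lies opposite to ACADVL, a fatty acid oxidation enzyme at 79.9 FPKM, and the sources used here do not say whether counting used strand. The model ssc-mir-421 (chromosome X, 59550987 to 59551071) had 3, 1, 3 and 7 counts in controls and 11, 7, 6 and 3 after melatonin (0.81 ± 1.13). Its neighbour MIR374B, 72 bp away, had 3, 2, 3 and 4 counts in controls and 10, 5, 4 and 0 after melatonin. Melatonin replicate 1 was the highest and replicate 4 the lowest of the melatonin libraries for both.

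The remaining 18 members, beside ssc-mir-1, held 10 to 27 summed counts each, and the edgeR adjusted p of every member other than ssc-mir-10390 was 0.741 or more. At the edge of the rule, ssc-mir-10383 had 10 counts, ssc-mir-425 and ssc-mir-196b-1 had 11, and ssc-mir-450b and ssc-mir-10388 had 12. The models ssc-mir-219a, ssc-mir-542, ssc-mir-1249-1 and ssc-mir-7135 had 9 counts each and fell just outside. On chromosome X, ssc-mir-450a, ssc-mir-450b and ssc-mir-503 lie on one strand with ssc-mir-450c and ssc-mir-542. Control replicate 2 had 8 counts in ssc-mir-450a and 8 in ssc-mir-450b, the highest of any library in both, and 1 in ssc-mir-503. The model ssc-mir-9788-1 appears at 2 positions on chromosome 12, in TUBG1 (27 counts) and in TUBG2 (18 counts), genes for the near-identical gamma-tubulins, so reads may be shared between its copies.

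The deposited counts are estimates that were rounded up. In every library the count of each single-transcript small RNA model with both values above 0 (324 to 375 models per library) equalled its FPKM times its length and a library constant, raised to the next whole number, within a tolerance of 1e-06 counts. In 2 libraries, control replicate 1 and melatonin replicate 3, no constant met this without the tolerance. A trace of coverage therefore appears as 1 count. Of the 86 models, 5 had 1 count in every library, and their unrounded values summed to at most 3.29 over all 8. With the rounding undone, 24 of the 31 members still reached 10.

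Length sets how these counts turn into FPKM. The members span 59 to 112 bp, with a median of 82. Each unrounded count on a member was worth a median of 0.206 FPKM. For the 15714 protein-coding genes tested, each deposited count was worth a median of 0.00488 FPKM, and the ratio was 42.3. As deposited counts are rounded up, the members' value per deposited count would be lower. All 31 members ranked higher by FPKM than by count. The model ssc-mir-10390 ranked 61 of 19438 by mean FPKM and 1551 by count, and ssc-mir-378-1 ranked 2246 and 12486. A mean of 1 FPKM was reached by 8 members, with a median of 65.5 summed counts, where protein-coding genes at or above that level had a median of 7438. A filter at 1 FPKM thus keeps members with few counts, while edgeR's own filter on counts kept 2 members, ssc-mir-10390 and ssc-mir-378-1.

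**Figure D4:**
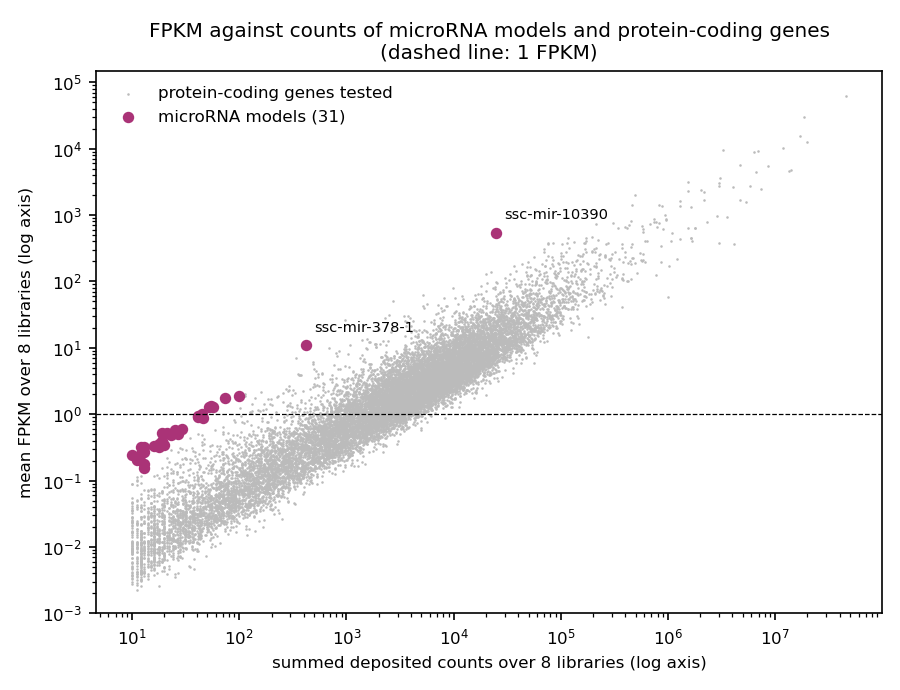
Mean FPKM (y axis, log scale) against summed deposited counts (x axis, log scale) of the 31 microRNA models (purple) and the protein-coding genes tested (grey); the dashed line marks 1 FPKM. At the same count the microRNA models lie above nearly all protein-coding genes, and ssc-mir-10390 and ssc-mir-378-1 stand apart from the other members.

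Of the 31 members, 15 lie wholly within a gene on the same strand, 4 lie only within a gene on the other strand, and 12 lie within none. The 4 are ssc-mir-24-2 in ENSSSCG00000010943 (9.28 FPKM), ssc-mir-145 in ENSSSCG00000052618 (5.10 FPKM), ssc-mir-324 in ACADVL and ssc-mir-214 in DNM3. As the use of strand in counting is not given, the part of these genes in the hairpins' counts was not tested. The same-strand hosts include RNA-binding and chromatin genes (HNRNPK, ZRANB2, BRD3), a growth factor receptor (FGFR4), a motor protein (MYH7) and the gene described as insulin like growth factor 2 (ENSSSCG00000035293), which holds ssc-mir-10383. Exons and introns were not used here, so the place of a hairpin within its host is given only by span. In FPKM the member lay above its host in 2 of 15 pairs, ssc-mir-378-1 and ssc-mir-1839, and under 10% of its host in 10. The median was 3.63% of the host. The host of ssc-mir-1839, ENSSSCG00000047853, held only 113 summed counts, at a mean of 0.256 FPKM. The model ssc-mir-1839 lay below it in control replicate 4 and melatonin replicates 1 and 3, and above it in the other libraries. Where an overlap of 1 base is enough, the same-strand host of ssc-mir-1839 is SCARNA15 instead, and its level was not compared here. The hosts with the highest levels, MYH7 at 796 FPKM and ENSSSCG00000031608 at 618 FPKM, carried members at 1.31 and 0.946 FPKM, and no test of the relation was made. Of the 15 hosts, 1, PPARGC1B, had an unadjusted p under 0.05 in edgeR and was lower, beside 3.15% of all genes lower and 5.6% higher, and 0 passed adjustment.

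**Figure D5:**
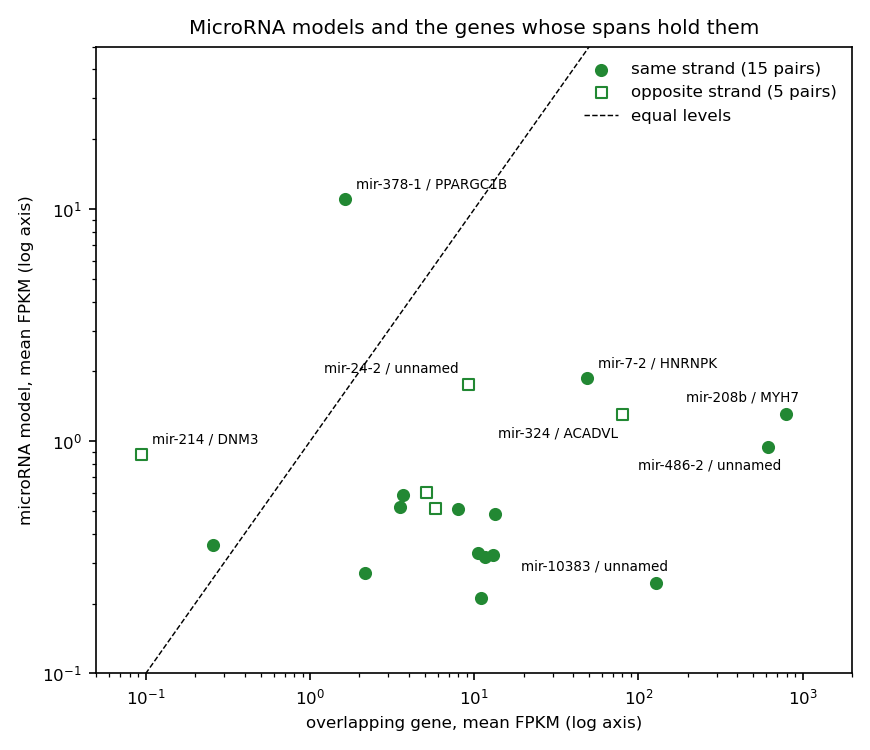
Mean FPKM of microRNA models (y axis, log scale) against the mean FPKM of the gene whose span holds them (x axis, log scale), for 15 pairs on the same strand (filled) and 5 on opposite strands (open); hosts without a symbol in the table are marked unnamed. Points above the dashed line of equal levels are ssc-mir-378-1, ssc-mir-1839 and ssc-mir-214.

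Other microRNA-type models, not named by the ssc-mir prefix, number 34, and 10 of them had at least 10 counts. The deepest was ENSSSCG00000035742, with 2188 counts, against 1607 for MIR133A1 and 527 for MIR1-2. This model lies on chromosome 12 (14578144 to 14578210) within DDX5, an RNA helicase that takes part in hairpin cutting. It had 233, 221, 281 and 187 counts in controls and 361, 302, 371 and 232 after melatonin (0.30 ± 0.21, edgeR adjusted p = 0.689). In counts melatonin replicate 4 lay within the control range. In FPKM melatonin replicates 2 (72.7) and 4 (54.8) both lay within the control range of 45.4 to 74.7. DDX5 itself measured 40.9, 29.6, 45.2 and 24.4 FPKM in controls and 51.5, 34.5, 57.3 and 31.8 after melatonin (0.19 ± 0.20).

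The genes that make and use microRNAs were measured at greater depth. Of a list of 32, 23 were found by symbol and tested. Past an unadjusted p under 0.05 in edgeR, 2 were higher and 0 lower, beside 5.6% and 3.15% of all genes, and 0 passed adjustment (smallest adjusted p = 0.557). The median log2 fold change was -0.01. The higher ones were XRN1, the cytoplasmic exonuclease that degrades decapped RNA, and SND1, a nuclease associated with the silencing complex. XRN1 measured 1.22, 0.684, 0.937 and 1.11 FPKM in controls and 1.60, 1.53, 1.93 and 0.971 after melatonin (0.50 ± 0.19), and melatonin replicate 4 lay within the control range. SND1 measured 7.75, 7.69, 8.52 and 8.83 FPKM in controls and 13.3, 9.24, 12.96 and 9.10 after melatonin (0.32 ± 0.13), with no overlap. Neither passed an unadjusted p of 0.05 without control replicate 3 or without melatonin replicate 3, XRN1 alone did without control replicate 1, and SND1 alone did without control replicate 2 or melatonin replicate 2. Next came ADAR, an editor of double-stranded RNA, at -0.30 ± 0.15, and AGO2, the Argonaute that can cut its target, at 0.34 ± 0.30. The nuclear and cytoplasmic cutting enzymes DROSHA (-0.01 ± 0.15), DGCR8 (-0.04 ± 0.13) and DICER1 (-0.11 ± 0.21) and the hairpin exporter XPO5 (-0.05 ± 0.16) did not pass the test.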

How the data were processed

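Poly(A) libraries with dUTP marking of the second strand were sequenced as paired ends, per the labels' protocols. For every gene and library the authors deposited a count and FPKM, which is scaled by length and library size, as the table is labelled per the file headers. FastQC, StringTie, DESeq2 and the build Sscrofa11.1 are named in the submitters' processing notes, while the sources used here do not give the aligner, the annotation release or the use of strand in counting. The deposited counts are whole-number estimated counts and were tested as deposited. All columns of values were mapped, with 0 left over, and no pair of libraries was a duplicate. Genes with at least 10 summed counts entered a comparison of melatonin with control by the legacy quasi-likelihood F test of edgeR 4.0.16 in R 4.3.3, scaled by TMM, with Benjamini-Hochberg adjustment over 19438 genes. The standard error is the log2 fold change divided by the root of F. Earlier work on this table filtered on FPKM, which acts unevenly on very short models, so a count filter was used. DESeq2 1.42.0 and limma 3.58.1 on log2(FPKM + 1) were alternatives. The fit was tested on simulated data. Members and lists were chosen with earlier results of these data known. Named members are the 12 with the most counts (also the 12 with the highest FPKM), those with an unadjusted p under 0.05, a fixed list of muscle, blood, stromal and other microRNAs, and those nearest the threshold on either side, with their hosts; of the processing list, the 4 genes with the smallest p. Plots used Matplotlib 3.10.9. No sequence is shown, as none was at hand for these models.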

Additional observations from a re-analysis of the deposited data

Results flagged for a closer look

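In 5 of 62 groups of 4 libraries (31 members, each group), the highest library stood further from the rest than Dixon's 95% limit allows. That limit assumes normally distributed values, so its rate of 1 in 20 need not hold for counts near 0. A group with a single library above 0 passes it by construction, so the number of flagged groups is not compared with that rate. Control replicate 3 was the highest control for ssc-mir-29b-2, at 2.69 FPKM against 0.425 in the next, and for ssc-mir-324, at 2.81 against 1.20. Melatonin replicate 1 was the highest melatonin library for ssc-mir-214, at 3.94 FPKM against 0.458. Melatonin replicate 4 was the only melatonin library above 0 for ssc-mir-450b, at 0.211 FPKM (2 counts), and for ssc-mir-196b-1, at 0.632 FPKM (4 counts).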

How the results depend on the processing

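The count of called genes was 0 in edgeR under every scaling, filter and variance model tried and without any 1 library (0 to 0), with limma also at 0, and 67 in DESeq2. Members past an unadjusted p under 0.05 numbered 0 higher and 1 lower, and without any 1 library stayed at 0 to 0 and 1 to 1. Limma on log2(FPKM + 1) gave 2 lower (ssc-mir-10390 and ssc-mir-1), and on log2(FPKM + 0.1) gave 1 higher (ssc-mir-145) and the same 2 lower. Nothing is read from ssc-mir-1 here, as it met the membership rule only through its controls. Genes of the processing list that were higher numbered 2, with 1 in limma on log2(FPKM + 0.1), 0 without melatonin replicates 1 and 3 together, and 0 to 2 without 1 library each (0 without control replicate 3 or melatonin replicate 3). Without control replicates 2 and 4 together they were SND1 and AGO2 in place of SND1 and XRN1. A threshold of 50 summed counts left 7 members. With the replicate number as a block, which rests on a shared number only (correlations of deviations -0.04 to 0.13 over the 4 pairs), 0 genes were called, ssc-mir-10390 was at -3.49 and ssc-mir-29c turned to -0.14. The sign of ssc-mir-24-2 turned with library size only (0.036), limma (0.068 with a pseudocount of 1, 0.11 with 0.1) and, at 1.6e-05, without melatonin replicates 1 and 3 together. Without those 2, ssc-mir-214 was at -1.24 and ssc-mir-29c at -1.60, and without control replicates 2 and 4 ssc-mir-29c was at -0.53. Without 1 library each, ssc-mir-378-1 ranged from -0.64 to 0.028, ssc-mir-24-2 from -0.25 to 0.14, ssc-mir-214 from -0.97 to 1.27 and ssc-mir-29c from -0.23 to 0.60. Without a change of sign, ssc-mir-29b-2 ranged from 0.40 to 2.29, ssc-mir-324 from -1.33 to -0.22, ssc-mir-486-2 from -1.76 to -0.33, ssc-mir-7-2 from -1.08 to -0.28 and ssc-mir-421 from 0.53 to 1.30. The cause was not tested.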
